A study of Homo sapiens with 12 samples.

Results

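Amino acids enter and leave a cell, and move across the membranes of its lysosomes, through families of solute carriers. Members of 7 of these families, named SLC1, SLC3, SLC6, SLC7, SLC36, SLC38 and SLC43 followed by A and a number, were taken from the deposited table by their symbols alone. There were 59 such genes among 59276 gene symbols. Myeloma cells are malignant plasma cells, which secrete large amounts of immunoglobulin and therefore draw heavily on imported amino acids. SLC1A5, SLC38 carriers and the heterodimers of SLC3A2 with an SLC7 subunit bring in glutamine, leucine and other neutral amino acids, and leucine, arginine and glutamine are read by the kinase complex mTORC1 at the lysosome. Several carriers of these families are transcribed more when amino acids run short, through the transcription factor ATF4.

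RNA-seq was made on JJN3, a human multiple myeloma cell line, in 4 groups of 3 samples. Wild-type cells were given DMSO, the solvent, or 10 µM MS023, an inhibitor of type I protein arginine methyltransferases, for 3 days. JJN3 cells that express Cas9 carried either a control guide (isgCtrl) or a guide against PRMT1 (PRMT1-KO), both switched on with doxycycline for 3 days. The Cas9 cells had been infected by lentivirus, sorted on a reporter and selected with puromycin, so that isgCtrl and PRMT1-KO share these steps and DMSO and MS023 lack them. Only 1 PRMT1 guide was sequenced, in 1 cell line. The study's methods speak of independent experiments and biological replicates in general, but nothing in the sources used here ties this to the sequenced samples, so p-values measure the spread between these samples, which may be technical.

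Values are TPM, the share of a gene in all transcripts of a sample, in which every sample adds up to the same total and each gene is corrected for its length, so that genes can be ranked by level. Differences between groups are on the log2(TPM+1) scale, which understates the change of low genes. Each comparison was fitted with limma on its own 6 samples, over genes whose mean log2(TPM+1) was above 1 in either group. A gene was called higher or lower at a Benjamini-Hochberg adjusted p under 0.05 over all genes tested and an absolute log2 fold change above 0.48. A two-sided exact permutation test of 3 samples against 3 cannot give a p under 0.1, and it gave 0.1 for each member called. The labels give only a minimum number of read pairs, common to all samples, and the depth of each sample cannot be read from these values. Pearson's r across genes was 0.993 to 0.996 within groups, and the lowest r between DMSO and MS023 samples was 0.982. The targeted PRMT1 transcript was lower in PRMT1-KO samples (log2(TPM+1) of 8.24 to 8.28) than in those of isgCtrl (9.73 to 9.76), DMSO (9.31 to 9.39) and MS023 (9.36 to 9.45). Of 9 plasma cell markers, 6 were above a log2(TPM+1) of 1 in all 12 samples. CD79A was below 1 in all of them, CD38 was at 0.79 to 0.99 in PRMT1-KO, and MZB1 was at 0.42 in PRMT1-KO replicate 2. None of 4 mature B cell or 5 T and NK cell markers was above 1 in any sample, but other lists had such markers: EPCAM was at 5.89 to 6.55 and KRT18 at 4.09 to 5.01 throughout, HBB reached 2.86, COL1A1 2.82 in isgCtrl replicate 2 and CD14 1.62 in MS023 replicate 3. By list, 3 of 3 epithelial, 3 of 4 stromal, 1 of 4 monocyte and 1 of 2 erythroid markers passed 1 in at least 1 sample. The plasma cell markers were themselves uneven: their summed level was 5410 to 5660 TPM in DMSO, 11500 to 11900 with MS023, 2810 to 2990 in PRMT1-KO and 2600 to 2660 in isgCtrl. JCHAIN, the joining chain of antibodies, held most of that sum, and without it the range was 707 to 746 TPM in DMSO, 1100 to 1140 with MS023, 627 to 630 in PRMT1-KO and 652 to 667 in isgCtrl. The markers did not move as one, since CD38 was at 2.50 to 2.68 in DMSO and 1.61 to 1.76 with MS023 and IRF4 was at 7.28 to 7.35 in isgCtrl and 6.50 to 6.67 in DMSO on the log2(TPM+1) scale. The part of these differences in the results below was not tested, and in bulk RNA fewer cells of a kind and less RNA per cell cannot be told apart.

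Of the 59 transporter genes, 21 reached a mean log2(TPM+1) above 1 in at least 1 group and 38 did not. By family these were 7 of 11 SLC38 genes, 4 of 13 SLC7, 3 of 19 SLC6, 2 of 7 SLC1, 2 of 4 SLC36, 2 of 3 SLC43 and 1 of 2 SLC3. There were 6 genes listed at 0 in all 12 samples, 35 above 0 in all 12 and 18 above 0 in some. JJN3 cells thus carried a short list of these transporters. Among the 38 low genes the highest group mean of log2(TPM+1) was 0.70, for the glutamate carrier SLC1A3, followed by 0.66 for SLC6A15 and 0.65 for SLC7A11. Untested low genes included the neuronal carriers of the SLC6 family and SLC7A8, SLC7A9, SLC7A10 and SLC7A13, further light chains of the heterodimers. Low values of these genes do not show that the genes are silent.

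A few genes held most of the transporter transcripts. In DMSO the highest levels were of SLC38A5 (194 ± 6.10 TPM, SD, n = 3), SLC1A5 (181 ± 5.25 TPM), SLC3A2 (86.9 ± 3.89 TPM) and SLC7A5 (43.8 ± 1.33 TPM). Together these 4 genes made up 68.5% of the summed level of all 59 in DMSO, 77.5% with MS023, 67.2% in isgCtrl and 65.7% in PRMT1-KO. They were the 4 highest in every group, but their order was not the same. SLC38A5 came first in DMSO and with MS023, and SLC1A5 came first in isgCtrl and PRMT1-KO. The samples of SLC38A5 and SLC1A5 did not overlap in any group, with a ratio of SLC38A5 over SLC1A5 of 1.02 to 1.11 in DMSO, 2.66 to 2.81 with MS023, 0.633 to 0.640 in PRMT1-KO and 0.599 to 0.664 in isgCtrl. Behind them the order was close: SLC38A10 (29.0 ± 2.77 TPM), SLC38A9 (27.9 ± 2.29 TPM) and SLC38A1 (26.6 ± 1.14 TPM) in DMSO were within 1 SD of the next.

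**Figure D1:**
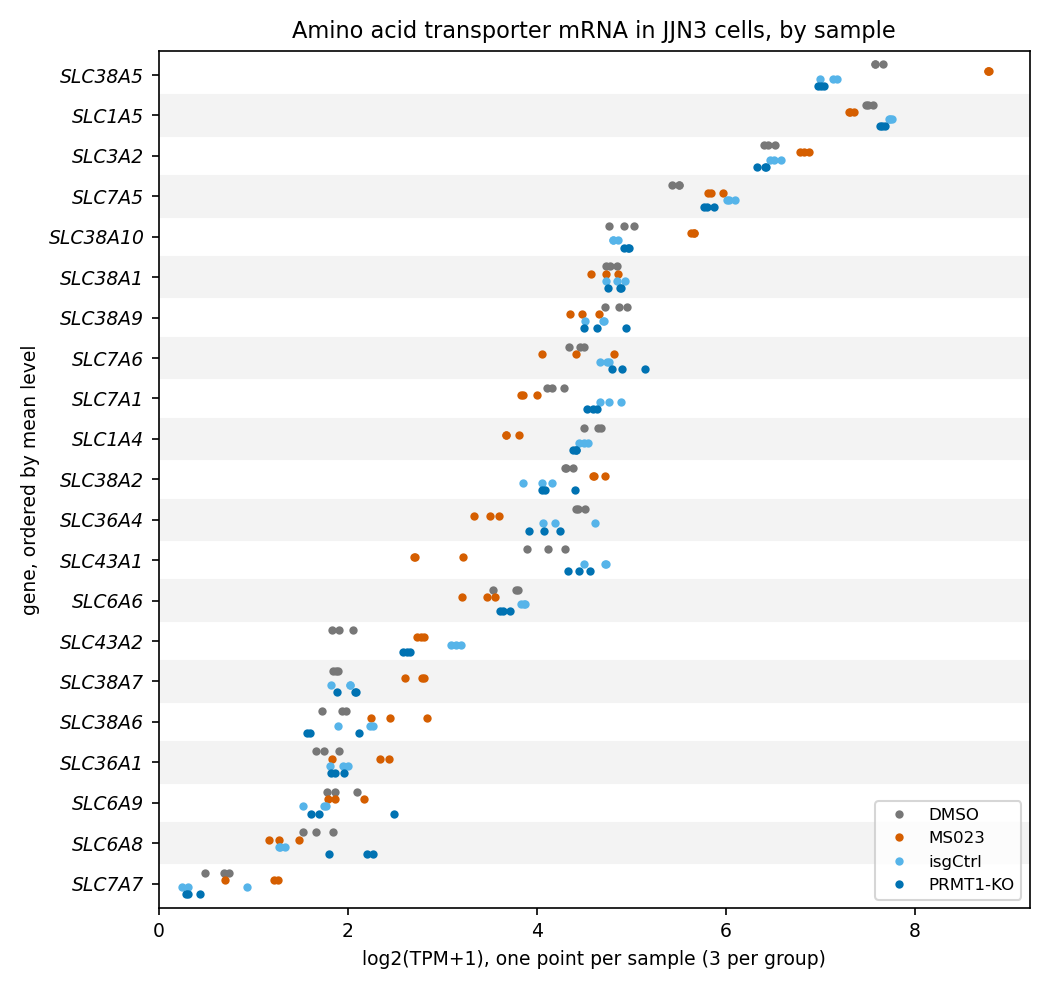
Level of the 21 tested transporters, as log2(TPM+1) on the x axis, with a point for each sample and a colour for each group (n = 3). SLC38A5 and SLC1A5 lie above all others, and the MS023 samples of SLC38A5 stand to the right of every other sample.

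MS023 raised 5 of the 21 transporters and lowered 3. Those that rose were SLC38A5, SLC38A7, SLC38A10 and SLC38A6 of the SLC38 family and SLC43A2, a carrier of leucine and other large neutral amino acids. Those that fell were SLC43A1, a carrier of the same amino acids, the proline and tryptophan carrier SLC36A4 and SLC1A4, a carrier of alanine, serine and cysteine. The 5 risen genes are 23.8% of the members tested, where 11.6% of all 12903 genes tested rose, and the 3 fallen genes are 14.3%, where 19.3% of all genes fell. At an adjusted p under 0.05 and any fold 15 members passed, or 71.4%, against 48.8% of all genes. Samples of both groups did not overlap for 15 members, against 59.5% of all genes. The median log2 fold change was 0.03 over the members and -0.11 over all genes.

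In PRMT1-KO cells 0 of 20 members were called higher in limma and 1 was called lower, SLC43A2. Of all 12285 genes tested, 0.415% were called higher and 0.366% lower, so that few calls were made at all in this comparison. At any fold, 1 member had an adjusted p under 0.05, where 1.28% of all genes did. An unadjusted p under 0.05 was reached by 6 members, and by 18.6% of all genes. Samples did not overlap for 10 members, or 50%, against 26.7% of all genes. The median log2 fold change was -0.09 over the members and -0.04 over all genes.

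**Figure D2:**
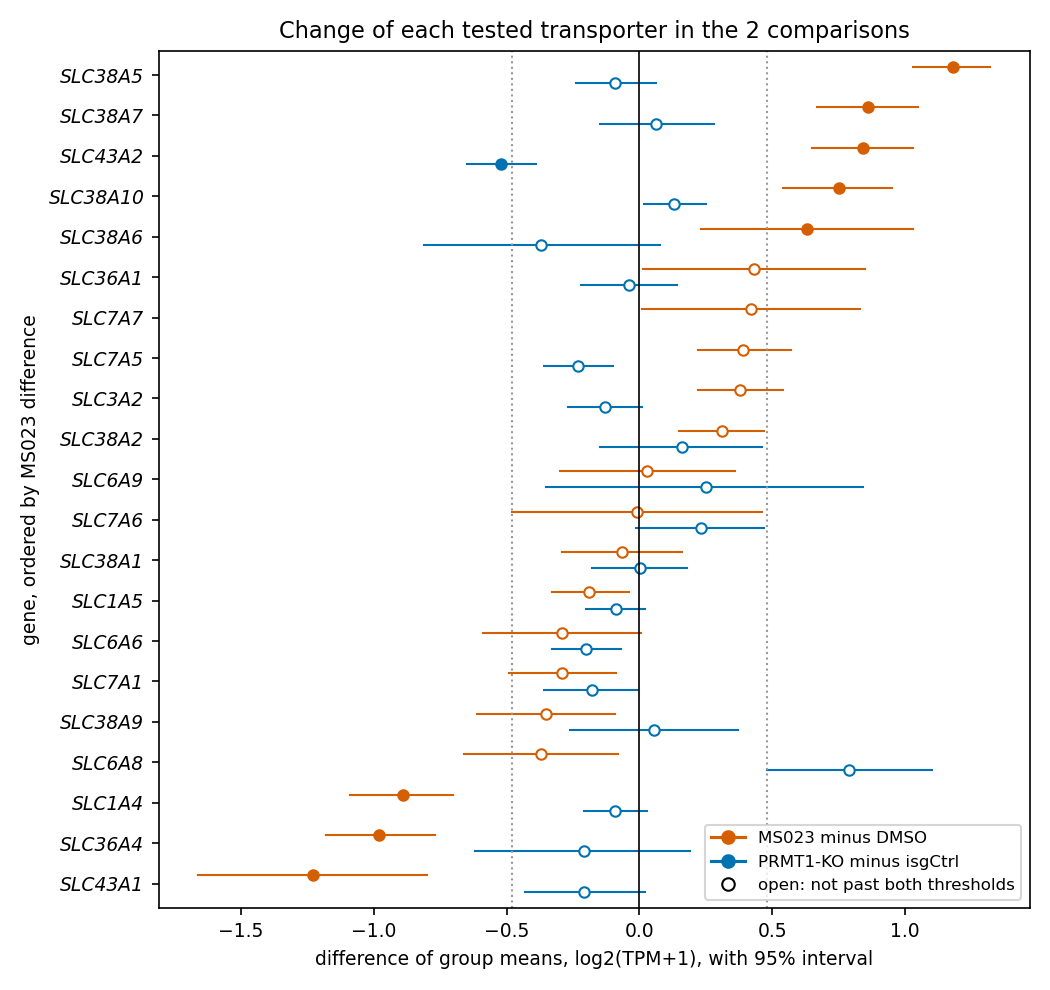
Log2 fold change of each tested transporter with its 95% confidence interval from limma, for MS023 against DMSO and for PRMT1-KO against isgCtrl, with filled points for genes called and dotted lines at the fold threshold. The SLC38A5 interval for MS023 runs from 1.03 to 1.32, and its interval in PRMT1-KO runs from -0.24 to 0.06.

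SLC38 carriers were the family with the most tested members and the most risen ones. Of 11 genes 7 were tested, 4 rose with MS023, 0 fell, and the median log2 fold change of the 7 was 0.63. Of all genes tested 11.6% rose and 19.3% fell, with a median of -0.11. In PRMT1-KO 0 of 7 were called in either direction in limma, where 0.415% of all genes were called higher and 0.366% lower. Among the 7, 1 had an unadjusted p under 0.05, against 18.6% of all genes, and the median was 0.05. Within the family the plasma membrane carrier SLC38A5 was the highest gene and had the largest rise. SLC38A5 (ENSG00000017483.16) takes up glutamine, serine, glycine and other neutral amino acids with sodium and in exchange for protons, and it lies on the minus strand of chromosome X at 48458537 to 48470260 in GRCh38. Its level was 191, 190 and 201 TPM in the DMSO samples and 443, 439 and 436 TPM in the MS023 samples. It was 144, 127 and 139 TPM in isgCtrl and 128, 131 and 125 TPM in PRMT1-KO. Every MS023 sample thus stood above every other sample of the study, and the isgCtrl and PRMT1-KO samples overlapped. The rise with MS023 was 1.18 on the log2 scale with an SE of 0.06 (limma and Benjamini-Hochberg, adjusted p = 8.86e-05), and the difference in PRMT1-KO was -0.09 (adjusted p = 0.481). SLC38A5 alone made up 26.3% ± 0.728 of the transporter transcripts in DMSO and 44.3% ± 1.18 with MS023 (SD, n = 3).

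The upstream sequence of SLC38A5 is shown because it precedes the start of the member that changed most in level. It is the run of 250 bases before the start in the RefSeq promoter table for GRCh38.p14, at chrX:48470261-48470510, printed 5′ to 3′ on the gene's minus strand and wholly outside the annotated gene. It has 60.8% G and C and 7 CpG pairs, where the medians over 35116 promoter windows are 58% and 11 and those over the 36 windows of tested members are 64.2% and 19. No part is in capitals, since the amino acid response letters described below were not in it.
SLC38A5 upstream: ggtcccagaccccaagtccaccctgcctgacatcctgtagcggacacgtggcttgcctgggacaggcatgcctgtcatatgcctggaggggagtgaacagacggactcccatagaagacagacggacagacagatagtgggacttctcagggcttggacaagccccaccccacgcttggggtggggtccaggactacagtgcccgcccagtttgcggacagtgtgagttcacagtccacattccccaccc

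SLC38A7 (ENSG00000103042.9), on chromosome 16 at 58665109 to 58684770, exports glutamine and asparagine from lysosomes. DMSO samples had 2.58, 2.74 and 2.67 TPM of it, and MS023 samples had 6.03, 5.06 and 5.89 TPM. In isgCtrl it was at 3.07, 2.54 and 3.06 TPM and in PRMT1-KO at 2.70, 3.22 and 3.26 TPM. Only the MS023 samples were apart from the rest, at a low level throughout. The log2 fold change was 0.86 with MS023 (SE 0.08, limma and Benjamini-Hochberg, adjusted p = 0.000496) and 0.06 in PRMT1-KO (adjusted p = 0.734).

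SLC38A10 (ENSG00000157637.13), a carrier of glutamine, glutamate and aspartate on chromosome 17 at 81244811 to 81295547, was the fifth most abundant transporter over all samples. Its level was 29.2, 26.2 and 31.7 TPM in DMSO against 48.6, 49.5 and 49.6 TPM with MS023. The guide lines had 27.9, 27.1 and 27.1 TPM in isgCtrl and 30.6, 29.3 and 30.3 TPM in PRMT1-KO. Neither pair of groups overlapped, although the step in PRMT1-KO was small beside that with MS023. With MS023 the log2 fold change was 0.75 (SE 0.08, limma and Benjamini-Hochberg, adjusted p = 0.00099), and in PRMT1-KO it was 0.13 with an interval of 0.02 to 0.25 (adjusted p = 0.229).

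SLC38A6 (ENSG00000139974.17), a little studied member on chromosome 14 at 60981114 to 61114316, had 2.83, 2.31 and 2.94 TPM in DMSO and 4.47, 3.75 and 6.14 TPM with MS023. The isgCtrl samples had 3.68, 2.73 and 3.82 TPM, and the PRMT1-KO samples had 3.34, 1.97 and 2.03 TPM. Its samples were the most scattered of the risen genes. The rise of 0.63 with MS023 (SE 0.16, adjusted p = 0.0206 by limma and Benjamini-Hochberg) went to 0.47, under the fold threshold, without MS023 replicate 3. The call was also lost without DMSO replicate 1 (adjusted p = 0.0508) and without DMSO replicate 2 (adjusted p = 0.0632). Exons of SLC38A6 overlap those of TRMT5, a tRNA methyltransferase gene on the opposite strand that fell by 0.81 on the log2 scale with MS023, and whether the libraries kept strand is not given in the sources used here.

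The other 3 tested SLC38 genes were not called with MS023 or in PRMT1-KO. SLC38A2, a glutamine and alanine carrier that rises when amino acids are short, had a log2 fold change of 0.31 with MS023 (19.1 ± 0.584 to 24.0 ± 1.21 TPM, SD, n = 3). SLC38A1, a glutamine carrier that lies 88171 bases from SLC38A2 on chromosome 12, had one of -0.06 with an interval of -0.29 to 0.16. SLC38A9, the arginine sensor of mTORC1 on lysosomes, had one of -0.35 (27.9 ± 2.29 to 21.7 ± 2.44 TPM).

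**Figure D3:**
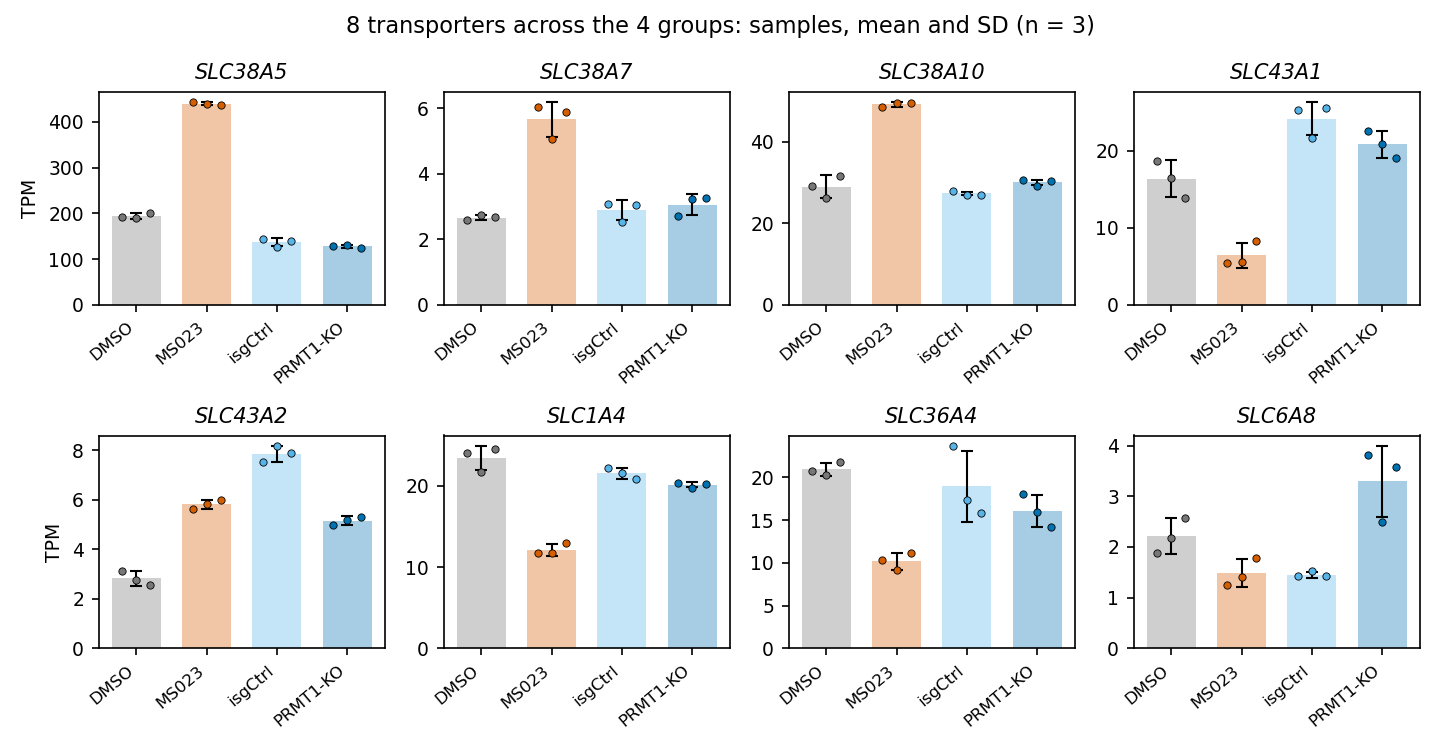
Level in TPM of 8 transporters in the 4 groups, with a point for each sample, a bar for the mean and an error bar for the SD (n = 3). MS023 samples are apart from DMSO samples in each panel, upward for SLC38A5, SLC38A7, SLC38A10 and SLC43A2 and downward for SLC43A1, SLC1A4, SLC36A4 and SLC6A8.

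The related carriers SLC43A1 and SLC43A2 moved in opposite directions with MS023. Both let leucine, isoleucine, phenylalanine and methionine cross the membrane without sodium. SLC43A1 (ENSG00000149150.9), on chromosome 11 at 57484534 to 57515780, was at 18.7, 16.4 and 13.9 TPM in DMSO and at 5.49, 5.56 and 8.33 TPM with MS023. It was at 25.3, 21.7 and 25.5 TPM in isgCtrl and at 22.6, 20.9 and 19.1 TPM in PRMT1-KO. MS023 samples were the lowest of the study, and isgCtrl and PRMT1-KO overlapped. The fall of 1.23 on the log2 scale with MS023 (SE 0.18, limma and Benjamini-Hochberg, adjusted p = 0.00244) was the largest fall of a transporter, while the log2 fold change in PRMT1-KO was -0.21 (adjusted p = 0.302).

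SLC43A2 (ENSG00000167703.15), on chromosome 17 at 1569268 to 1628886, was at 3.14, 2.77 and 2.55 TPM in DMSO and at 5.64, 5.81 and 5.99 TPM with MS023. In isgCtrl it was at 7.52, 8.16 and 7.90 TPM and in PRMT1-KO at 4.97, 5.20 and 5.31 TPM. The groups did not overlap in either comparison, but the gene was higher with MS023 than in its control and lower in PRMT1-KO than in its control. Its log2 fold change was 0.84 with MS023 (SE 0.08, adjusted p = 0.000514) and -0.52 in PRMT1-KO (SE 0.05, adjusted p = 0.0286, both limma and Benjamini-Hochberg). The PRMT1-KO call was lost when any 1 of the 6 samples was left out, with adjusted p of 0.0889 to 0.107 and a log2 fold change of -0.55 to -0.50, and under quantile normalization, where the log2 fold change was -0.47. Over all genes, leaving out 1 sample left 1 to 11 called higher and 1 to 10 lower, where all 6 samples gave 51 and 45. SLC43A2 was also the member that differed most between the control groups, 2.82 ± 0.298 TPM in DMSO and 7.86 ± 0.323 TPM in isgCtrl (SD, n = 3), so that the PRMT1-KO level lay between both controls.

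The ratio of SLC43A2 over SLC43A1 was 0.168 to 0.183 in DMSO and 0.719 to 1.04 with MS023, and it was 0.220 to 0.279 in PRMT1-KO against 0.297 to 0.376 in isgCtrl. Their summed level was 19.2 ± 2.66 TPM in DMSO and 12.3 ± 1.78 TPM with MS023 (SD, n = 3). SLC43A3, a carrier of purine nucleobases despite its family name, stayed under 1 TPM in each of the 12 samples.

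The best known SLC36 carriers move small amino acids together with protons. SLC36A4 (ENSG00000180773.15), a high-affinity carrier of proline and tryptophan on chromosome 11 at 93144174 to 93197991, had 20.7, 20.3 and 21.8 TPM in DMSO and 10.3, 9.14 and 11.1 TPM with MS023. It had 23.7, 17.3 and 15.8 TPM in isgCtrl and 18.0, 15.9 and 14.2 TPM in PRMT1-KO. MS023 samples stood below all others, and the isgCtrl samples, with replicate 1 high, overlapped those of PRMT1-KO. The log2 fold change was -0.98 with MS023 (SE 0.09, limma and Benjamini-Hochberg, adjusted p = 0.000423) and -0.21 in PRMT1-KO (adjusted p = 0.523). SLC36A1, the lysosomal carrier of small neutral amino acids, was at 2.43 ± 0.303 TPM in DMSO and 3.68 ± 0.985 TPM with MS023 (SD, n = 3), a log2 fold change of 0.43 that was not called (limma and Benjamini-Hochberg, adjusted p = 0.0823). It was called under both other scalings, median-ratio and quantile.

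Of 7 SLC1 genes only SLC1A4 and SLC1A5 were tested, and SLC1A4 fell with MS023. SLC1A4 (ENSG00000115902.11), on chromosome 2 at 64988477 to 65023865, exchanges alanine, serine and cysteine. Its level was 24.0, 21.7 and 24.6 TPM in DMSO and 11.7, 11.7 and 13.0 TPM with MS023, while isgCtrl samples had 22.2, 21.6 and 20.8 TPM and PRMT1-KO samples 20.4, 19.8 and 20.3 TPM. The samples did not overlap in either comparison. The log2 fold change was -0.89 with MS023 (SE 0.08, limma and Benjamini-Hochberg, adjusted p = 0.000457) and -0.09 in PRMT1-KO with an interval of -0.21 to 0.03 (adjusted p = 0.369). SLC1A5, the main glutamine exchanger of many cancer cells, had 187, 177 and 180 TPM in DMSO and 158, 157 and 163 TPM with MS023. Its log2 fold change of -0.19 was under the fold threshold (limma and Benjamini-Hochberg, adjusted p = 0.0436). In isgCtrl it had 216, 212 and 213 TPM and in PRMT1-KO 200, 204 and 198 TPM, a log2 fold change of -0.09 (adjusted p = 0.342 by limma and Benjamini-Hochberg).

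The subunits of the heterodimeric transporters stayed under the fold threshold. SLC3A2, also known as the CD98 heavy chain, is needed to bring its SLC7 light chains to the cell surface, and SLC7A5 is the light chain that imports leucine and other large neutral amino acids. SLC3A2 (chromosome 11, 62856004 to 62888880) was at 86.6, 90.9 and 83.2 TPM in DMSO and at 113, 117 and 110 TPM with MS023. It was at 87.5, 89.9 and 94.6 TPM in isgCtrl and at 85.1, 83.9 and 79.4 TPM in PRMT1-KO. Samples did not overlap in either comparison, upward with MS023 and downward in PRMT1-KO. The log2 fold change was 0.38 with MS023 (SE 0.07, adjusted p = 0.00497) and -0.13 in PRMT1-KO (adjusted p = 0.290, both limma and Benjamini-Hochberg).

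SLC7A5 (chromosome 16, 87830023 to 87869507) was at 44.6, 42.2 and 44.4 TPM in DMSO and at 56.4, 55.1 and 61.9 TPM with MS023. In the guide lines it was at 64.3, 63.6 and 67.5 TPM in isgCtrl and at 54.9, 57.8 and 53.6 TPM in PRMT1-KO. As for SLC3A2, the groups did not overlap in either comparison. The log2 fold changes were 0.39 (SE 0.07, adjusted p = 0.00587) and -0.23 (SE 0.05, adjusted p = 0.122, both limma and Benjamini-Hochberg). Under median-ratio scaling SLC3A2 and SLC7A5 were called higher with MS023, at 0.48 and 0.49. Near-identical pseudogene copies of SLC7A5 share its reads, and the summed level of SLC7A5 with SLC7A5P1 and SLC7A5P2 was 48.5 TPM in DMSO, 64.2 TPM with MS023, 73.4 TPM in isgCtrl and 61.2 TPM in PRMT1-KO.

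SLC7A11, the light chain of the cystine and glutamate exchanger, was below the expression minimum and was not tested. It had 0.581, 0.528 and 0.590 TPM in DMSO and 0.664, 0.457 and 0.560 TPM with MS023, which overlap. In isgCtrl it had 0.305, 0.260 and 0.252 TPM and in PRMT1-KO 0.268, 0.304 and 0.336 TPM, which overlap as well. SLC7A6 and SLC7A7, light chains that exchange cationic for neutral amino acids, were not called in either comparison. SLC7A7 passed the minimum only through its MS023 samples, at 0.563 ± 0.137 TPM in DMSO and 1.12 ± 0.427 TPM with MS023 (SD, n = 3). The ratio of SLC3A2 over its summed light chains was 1.24 to 1.45 in DMSO and 1.20 to 1.62 with MS023, and 0.901 to 1.01 in PRMT1-KO against 0.962 to 1.01 in isgCtrl.

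Among cationic carriers only SLC7A1 was tested, an importer of arginine and lysine. DMSO samples had 18.6, 16.2 and 16.9 TPM of it and MS023 samples 13.4, 13.3 and 15.0 TPM, a log2 fold change of -0.29 under the fold threshold. The isgCtrl samples had 28.6, 24.5 and 26.0 TPM and the PRMT1-KO samples 22.2, 23.9 and 23.2 TPM, a log2 fold change of -0.18 (limma and Benjamini-Hochberg, adjusted p = 0.257).

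Of 19 SLC6 genes the creatine carrier SLC6A8, the taurine carrier SLC6A6 and the glycine carrier SLC6A9 were tested, and none was called in either comparison. SLC6A8 (ENSG00000130821.17), on chromosome X at 153687926 to 153696588, had 1.88, 2.17 and 2.58 TPM in DMSO, 1.25, 1.40 and 1.79 TPM with MS023, 1.42, 1.52 and 1.42 TPM in isgCtrl and 3.81, 2.49 and 3.58 TPM in PRMT1-KO. The samples were apart in both comparisons, downward with MS023 and upward in PRMT1-KO, where replicate 2 was the lowest. Its log2 fold change of 0.79 in PRMT1-KO was the largest of the members there but missed the threshold (SE 0.13, limma and Benjamini-Hochberg, adjusted p = 0.0557). It was called without PRMT1-KO replicate 2 (0.94, adjusted p = 0.0477). With MS023 its log2 fold change was -0.37 (adjusted p = 0.0423 by limma and Benjamini-Hochberg). By the same test it was called lower at a pseudocount of 0.1 (-0.55, adjusted p = 0.0446). Without MS023 replicate 1 it was at -0.30 (adjusted p = 0.12). The levels are low, and reads cannot always be split between SLC6A8 and its pseudogene copies.

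Summed over all 59 genes, transporter transcripts took 738 ± 13.5 TPM in DMSO, 993 ± 21.4 TPM with MS023, 753 ± 21.4 TPM in isgCtrl and 711 ± 10.8 TPM in PRMT1-KO (SD, n = 3). The MS023 samples, at 971 to 1010 TPM, were above all others. The largest rise by role was in the SLC38 family, which went from 302 ± 10.7 to 570 ± 6.18 TPM. Within it SLC38A5 alone went from 194 ± 6.10 to 439 ± 3.54 TPM. Heteromeric subunits went from 153 ± 1.95 to 194 ± 6.66 TPM, whereas SLC1 carriers went from 205 ± 6.20 to 172 ± 4.25 TPM and SLC36 and SLC43 carriers from 42.7 ± 2.39 to 26.5 ± 3.60 TPM. In PRMT1-KO the SLC38 sum was 234 ± 5.78 TPM against 237 ± 12.1 TPM in isgCtrl, and the other sums were 169 ± 8.23 against 182 ± 5.99 TPM for heteromeric subunits and 222 ± 2.60 against 236 ± 2.47 TPM for SLC1 carriers.

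**Figure D4:**
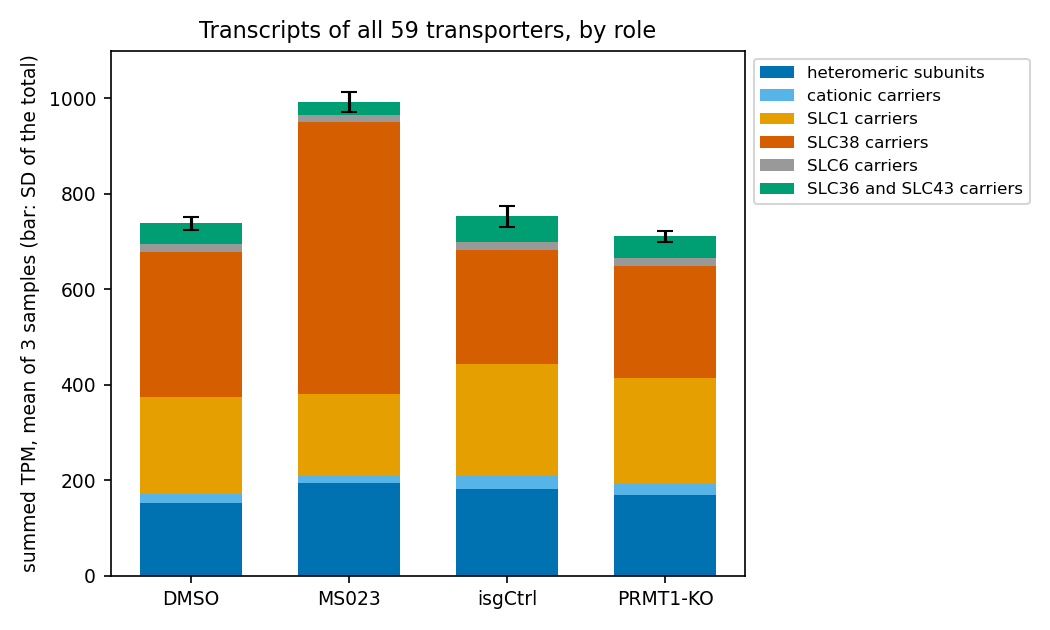
Summed TPM of the 59 transporters in each group as the mean of 3 samples, stacked by role, with an error bar for the SD of the total. The MS023 bar reaches 993 TPM, and its SLC38 layer is 57.4% of it against 40.9% in DMSO.

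Whether both ways of acting on PRMT1 moved the transporters alike was asked by testing the MS023 effect minus the PRMT1-KO effect over all 12 samples. Of 21 members, 7 were called higher by this difference and 4 lower, or 33.3% and 19.0%, against 9.69% and 14.7% of 13256 genes tested. The higher ones were SLC43A2 (1.36), SLC38A5 (1.27), SLC38A6 (1.00), SLC38A7 (0.80), SLC7A5 (0.62), SLC38A10 (0.62) and SLC3A2 (0.51). The lower ones were SLC6A8 (-1.16), SLC43A1 (-1.02), SLC1A4 (-0.80) and SLC36A4 (-0.76). All 8 members called with MS023 are among the 11 whose effects differed, joined by SLC6A8, SLC7A5 and SLC3A2. The difference uses the same MS023 and DMSO samples, so this overlap is partly built in and is not a separate result. How many of all genes called with MS023 also differed was not counted. MS023 inhibits type I enzymes besides PRMT1, and the 2 comparisons also differ in Cas9, the vector, the selection and doxycycline, which cannot be told apart from the way PRMT1 was acted on.

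The control groups themselves differed in the transporters. In isgCtrl against DMSO 4 of 20 members were called higher and 1 lower, where 7.23% and 6.70% of 12661 genes were, and 12 members did not overlap, against 51.7% of all genes. SLC43A2 was higher by 1.22, SLC7A1 by 0.59, SLC7A5 by 0.56 and SLC43A1 by 0.54, and SLC38A5 was lower at -0.50 (adjusted p of 0.000451, 0.00489, 0.00178, 0.0193 and 0.00397, limma and Benjamini-Hochberg). SLC38A5 lost its call without isgCtrl replicate 2 (-0.45) or DMSO replicate 3 (-0.48), and SLC43A1 lost its call without isgCtrl replicate 1 or 3 or DMSO replicate 2 or 3. Cas9, the vector, the selection and doxycycline set isgCtrl apart from DMSO at once and cannot be told apart. The plasma cell gene MZB1 was also far lower there, at 6.70 to 6.75 in DMSO but 1.42 to 1.77 in isgCtrl on the log2(TPM+1) scale.

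Genes around the transporters were counted from 4 lists. Of 37 tested genes of amino acid sensing by mTORC1, 3 rose with MS023 and 2 fell, or 8.11% and 5.41%, both below the 11.6% and 19.3% of all genes, with a median log2 fold change of 0.03. The GTPase RRAGC (0.54), CASTOR2 (0.58), a relative of the arginine sensor gene CASTOR1, and KPTN (0.59), part of a complex that restrains mTORC1, rose. CASTOR1 itself was not called (0.15). WDR24 (-1.34) and MIOS (-0.77), subunits of GATOR2, an activator of mTORC1, fell. Of 17 tested carriers from other families, 3 rose and 2 fell, or 17.6% and 11.8% against the same shares of all genes, with a median of 0.14. They included the vesicular glutamate carrier SLC17A7 (1.91) and the lysosomal cystine exporter CTNS (0.80) among the risen, and the mitochondrial ornithine carrier SLC25A15 (-0.67) and the aromatic amino acid carrier SLC16A10 (-0.54) among the fallen. SLC17A7 did not pass the expression minimum in isgCtrl or PRMT1-KO and was not tested there.

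Of 15 tested genes of cystine use and glutathione, 3 rose and 1 fell with MS023, or 20% and 6.67% where 11.6% and 19.3% of all genes did, with a median of 0.11. In lists this short 1 gene moves a share by several percentage points. GGT7 (1.12), a member of the gamma-glutamyltransferase family, TXNRD1 (0.56), a thioredoxin reductase, and GPX4 (0.52), which reduces lipid peroxides, rose, and CBS (-1.08), which starts the conversion of homocysteine to cysteine, fell. Of 15 tested genes of the transcription response to amino acid stress, only ATF4 (0.51) rose and only the serine synthesis enzyme PHGDH (-0.57) fell, 6.67% each way, with a median of 0.09. ASNS, the asparagine synthetase and a target of ATF4, had a log2 fold change of -0.01. In PRMT1-KO 0 genes of any of the 4 lists were called in limma, out of 37, 15, 15 and 15 tested, with 4, 5, 3 and 4 genes at an unadjusted p under 0.05 (10.8%, 33.3%, 20% and 26.7%, against 18.6% of all genes) and medians of -0.018, 0.035, -0.04 and 0.015, in the order given.

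Because several of these transporters are known targets of ATF4, promoters were searched for the letters TGATGNAAN, the C/EBP-ATF response element, on both strands of the RefSeq windows of 250 bases before to 50 after each start in GRCh38.p14. The letters occur in 4.45% of 27305 genes with a window. They occur in 6 of the 44 members with a window, or 13.6%, and in 5 of the 20 tested members with one, SLC6A6 having none. A gene can have several windows: the 20 tested members have 36, and the 27305 genes have 35116. The shares of genes were not corrected for this, so they are not on the same footing. None of the 5 members risen with MS023 and 1 of the 3 fallen, SLC1A4, had the letters. The sites are printed to show which members hold the letters, 5′ to 3′ on the gene's strand, with the match in capitals. For SLC1A4 and SLC3A2 the match is on the opposite strand, so the capitals read as its reverse complement. They lie at chr2:64989381-64989409 (plus) for SLC1A4, chr19:46784893-46784921 (minus) for SLC1A5, chr11:62881725-62881748 (plus) for SLC3A2, chr13:29595663-29595691 (minus) for SLC7A1 and chr12:46266502-46266530 (minus) for SLC38A1.
SLC1A4: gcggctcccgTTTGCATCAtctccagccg
SLC1A5: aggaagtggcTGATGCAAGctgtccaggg
SLC3A2: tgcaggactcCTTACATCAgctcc
SLC7A1: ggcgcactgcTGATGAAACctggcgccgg
SLC38A1: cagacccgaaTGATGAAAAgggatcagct
These 5 genes had log2 fold changes of -0.89, -0.19, 0.38, -0.29 and -0.06 with MS023, in the order printed, and -0.09, -0.09, -0.13, -0.18 and 0.00 in PRMT1-KO. The sites of SLC1A4, SLC1A5, SLC3A2 and SLC38A1 are at RefSeq starts inside the annotated gene, not at its outermost start. A match of letters is a description of the window and not a bound site.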

How the data were processed

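RNA-seq values of 12 JJN3 samples were used, 3 each of DMSO, MS023, isgCtrl and PRMT1-KO, grouped by the samples' labels. The authors trimmed reads with Trimmomatic, aligned them with STAR to hg38 with GENCODE annotation, quantified them with Salmon and deposited log2(TPM+1) per gene symbol. Read counts and depth cannot be recovered from TPM, so no count model was used and precision is given by the spread of 3 replicates.

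Transporters were selected by symbol and grouped by role. The members and the lists were chosen with earlier results of these data known. limma 3.58.1 in R 4.3.3 (eBayes without trend) was fitted to the 6 samples of each comparison and, for the difference of the effects, to all 12 samples. Thresholds follow the study's Methods: a Benjamini-Hochberg adjusted p under 0.05 over all genes tested, an absolute log2 fold change above 0.48 and log2(TPM+1) above 1, which was applied here to the mean of either group because the Methods do not say how it was applied. Two-sided exact permutation tests were run per member. The genes named are every member called, the 5 highest, SLC3A2, SLC7A5, SLC7A11 and those nearest the fold threshold. Others (SLC6A8 in PRMT1-KO, low genes, remaining tested members) were chosen after their values were seen. The code was tested on simulated data. Once each gene's group mean was subtracted, same-numbered replicates of compared groups were at most weakly correlated (r of -0.228 to 0.102). With 3 samples per group this cannot show whether the numbers pair samples, and the main fits do not pair them. Alternatives were other filters, a pseudocount of 0.1, median-ratio and quantile scaling, eBayes with trend, the replicate block, other fold thresholds, 1 fit of all samples and leaving out each sample. Positions come from GENCODE release 44 on GRCh38 and promoters from RefSeq. Protein sequences were not used here.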

Additional observations from a re-analysis of the deposited data

Results flagged for a closer look

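The effect of MS023 differed from that of PRMT1-KO for 11 transporters by a test of the difference itself (limma over 12 samples, Benjamini-Hochberg adjustment, absolute log2 difference above 0.48). The difference was positive for SLC43A2 (1.36, adjusted p = 3.86e-06), SLC38A5 (1.27, adjusted p = 2.43e-06), SLC38A6 (1.00, adjusted p = 0.0137), SLC38A7 (0.80, adjusted p = 0.000598), SLC7A5 (0.62, adjusted p = 0.000318), SLC38A10 (0.62, adjusted p = 0.000604) and SLC3A2 (0.51, adjusted p = 0.000809). It was negative for SLC36A4 (-0.76, adjusted p = 0.0122), SLC1A4 (-0.80, adjusted p = 9.28e-05), SLC43A1 (-1.02, adjusted p = 0.00423) and SLC6A8 (-1.16, adjusted p = 0.000838), all in the same limma fit with Benjamini-Hochberg adjustment. SLC43A2, SLC6A8, SLC3A2 and SLC7A5 had non-overlapping groups in both comparisons, in opposite directions. SLC43A2, SLC3A2 and SLC7A5 were higher with MS023 and lower in PRMT1-KO, and SLC6A8 was lower with MS023 and higher in PRMT1-KO. Groups also did not overlap in either comparison for SLC38A10, SLC1A4, SLC1A5 and SLC7A1, which moved in the same direction in both. Of all these genes only SLC43A2 was called in PRMT1-KO. How many of all genes had either pattern was not counted. Without DMSO replicate 3, isgCtrl replicate 3 or PRMT1-KO replicate 3, SLC3A2 lost its call in this difference.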

How the results depend on the processing

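Of 672 alternative values of 42 fold changes of named members, 624 kept their call or their lack of one, 31 lost a call, 17 gained one and 0 reversed. A change of sign was counted only where the gene was called in either fit. Most of the 42 were not called in the main fit, so most of the 624 are values that stayed without a call. In PRMT1-KO the call of SLC43A2 was kept in 7 of 16 alternatives. With MS023 the members called higher were 8 under median-ratio scaling, 8 without a fold threshold (7 then lower) and 1 above a log2 fold change of 1 (1 lower). In PRMT1-KO quantile normalization gave 1 higher and 0 lower, and eBayes with trend and 1 fit of all 12 samples each gave 1 higher, SLC6A8. Above a log2 fold change of 1, 0 were lower, and leaving out samples gave 0 to 1 higher and 0 lower. In isgCtrl against DMSO a pseudocount of 0.1 gave 2 lower, quantile normalization 2 higher, no fold threshold 3 lower, a log2 fold change above 1 gave 1 higher and 0 lower, and leaving out samples 0 to 1 lower. The difference of the effects had 2 higher and 2 lower above a log2 fold change of 1. Median-ratio scaling moved the summed level to 722 TPM in DMSO, 1060 TPM with MS023, 711 TPM in isgCtrl and 691 TPM in PRMT1-KO. Over all genes it moved the MS023 calls from 1500 higher and 2486 lower to 1906 and 1959, and the PRMT1-KO calls from 51 and 45 to 65 and 30. SLC38A6 lost its MS023 call without a filter on low values (adjusted p = 0.0556 by limma and Benjamini-Hochberg). The cause of these changes was not tested.

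With the replicate number as a block, PRMT1-KO had 0 members lower, SLC43A2 being at an adjusted p of 0.168 by limma and Benjamini-Hochberg. Over all 12285 genes tested that fit called 0 higher and 0 lower, so the loss was not particular to SLC43A2. The block changed no other call of a member. As far as the labels tell, the samples share only a number. The depth of each sample is not in the deposited values, so no limit is given for low genes such as SLC7A11.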
